A study of Caenorhabditis elegans with 2 samples.

Results

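The nuclear tRNA genes of Caenorhabditis elegans were examined for peaks of the protein encoded by C17E4.6. All 612 genes annotated as tRNA on the nuclear chromosomes were taken (Ensembl release 115, assembly WBcel235, the same sequence as ce11), out of 46890 annotated nuclear genes. The rule that chose them used the annotation and no peak value, but the choice was made with earlier results of these data known. The lists came from 1 group of 2 biological replicates of strain RW12293, whole young adult animals at 62 hours that carried st12293[C17E4.6::TY1::EGFP::3xFLAG], a CRISPR insertion that fuses TY1, EGFP and 3xFLAG to the protein. Chromatin was sheared by sonication and pulled down through the EGFP tag. Every tissue of the animal contributed, so a peak cannot be assigned to a cell type. Data from untagged or other control pull-downs were not analysed here, and the lists give no read depth. Genes are not replicates of a condition and there was no second group, so no p-value is given. The main shares are given with 95% Wilson intervals, which cover counting error only, and with the values of each replicate on its own.

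Transfer RNA genes are transcribed by RNA polymerase III from a promoter that lies inside the gene. TFIIIC binds the internal A and B boxes and brings TFIIIB, which recruits the polymerase to the 5' end, and transcription stops at a run of T residues just past the gene. C17E4.6 is annotated as a VPS72 (YL1) protein. In yeast, flies and mammals such proteins work in chromatin remodelling complexes that deposit H2A.Z, a variant histone found at many promoters. In worms many tRNA genes lie on the X chromosome, in small groups or inside the introns of coding genes.

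The genes were 64 to 122 bp long, with a median of 72 bp, and 469 of them shared their whole sequence with at least 1 other tRNA gene. The sequences below show the 3 ways in which neighbouring genes lay under 1 peak, written on the plus strand of WBcel235 from the RefSeq copy, with the 2 tRNA genes of each pair in capitals and the spacer in lower case. The pair T23F1.t1 (Lys, WBGene00014531) and T23F1.t2 (Pro, WBGene00014532) face each other at chrV:15465086-15465296, and the summit of their peak was at base 95 of the stretch, in the spacer. The pair F15G9.t1 (Ala, WBGene00014333) and F15G9.t2 (Ala, WBGene00014334) lie on the same strand at chrX:9743589-9743818 in introns of him-4, the hemicentin gene, with the summit at base 81. The pair M02F4.t2 (Glu, WBGene00023111) and M02F4.t1 (Gly, WBGene00023110) point away from each other at chrX:3035976-3036235, with the summit at base 179.
T23F1.t1 and T23F1.t2: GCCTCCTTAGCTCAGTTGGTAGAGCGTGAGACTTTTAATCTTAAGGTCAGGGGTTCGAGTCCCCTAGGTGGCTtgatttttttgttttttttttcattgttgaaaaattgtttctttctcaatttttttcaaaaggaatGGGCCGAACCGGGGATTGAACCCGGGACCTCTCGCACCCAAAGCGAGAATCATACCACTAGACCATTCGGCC
F15G9.t1 and F15G9.t2: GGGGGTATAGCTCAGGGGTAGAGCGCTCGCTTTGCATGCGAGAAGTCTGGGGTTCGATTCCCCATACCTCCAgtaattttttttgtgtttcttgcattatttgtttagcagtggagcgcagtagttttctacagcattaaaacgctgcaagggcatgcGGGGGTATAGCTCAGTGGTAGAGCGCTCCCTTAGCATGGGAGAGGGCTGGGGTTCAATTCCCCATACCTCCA
M02F4.t2 and M02F4.t1: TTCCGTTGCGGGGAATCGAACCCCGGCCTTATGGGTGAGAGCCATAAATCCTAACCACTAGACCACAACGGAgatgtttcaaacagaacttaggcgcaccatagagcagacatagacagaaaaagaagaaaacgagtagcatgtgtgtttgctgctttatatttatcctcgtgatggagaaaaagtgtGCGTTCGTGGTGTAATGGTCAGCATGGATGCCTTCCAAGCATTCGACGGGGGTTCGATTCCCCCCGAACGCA

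Single genes are shown next, each on its own strand, with the letters of the B box in capitals where they occur as GTTCGANNC. F57F5.t1 (Ile, chrV:12002176-12002260, plus strand) and C40H5.t1 (Leu, chrX:11757831-11757914, minus strand) had the highest and the third highest signal among genes with no neighbour. F34H10.t1 (Ala, chrX:9637852-9637923, minus strand) had the second highest and, like the Pro gene T23F1.t2 (chrV:15465225-15465296, minus strand), does not hold these exact letters and so is all in lower case. T28C12.t1 (Cys, chrV:6335398-6335469, plus strand) had no peak in the combined list.
F57F5.t1: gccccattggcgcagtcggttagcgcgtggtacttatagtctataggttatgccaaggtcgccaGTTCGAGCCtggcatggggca
C40H5.t1: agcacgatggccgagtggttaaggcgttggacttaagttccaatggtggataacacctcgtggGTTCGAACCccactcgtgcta
F34H10.t1: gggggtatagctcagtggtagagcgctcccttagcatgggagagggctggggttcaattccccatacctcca
T23F1.t2: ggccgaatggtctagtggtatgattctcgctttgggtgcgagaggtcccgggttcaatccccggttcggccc
T28C12.t1: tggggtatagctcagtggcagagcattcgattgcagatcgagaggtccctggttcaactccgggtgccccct

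A summit of the combined list lay in the window of 88 of the 612 tRNA genes, a share of 14.4% (11.8% to 17.4%). The window ran from 500 bp upstream to 200 bp downstream of the 5' end, and genes with a summit in it are called marked. The combined list holds 1017 peaks that the authors drew from both replicates at an irreproducible discovery rate (IDR) of 0.01. With the same window 558 of 19973 coding genes were marked, the background of 2.79%, and over all nuclear genes it was 2.1%. The tRNA share was 11.6 percentage points above that of coding genes (9.02 to 14.6). In the thresholded list of replicate 1 alone, 43 tRNA genes were marked, 7.03%, against 1.72% of coding genes. In that of replicate 2 alone, 30 were marked, 4.90%, against 1.34% of coding genes.

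The high share was not particular to tRNA genes among the short noncoding genes. Beside the 14.4% of tRNA genes, small nucleolar RNA genes, whose products guide modification of ribosomal RNA, were marked in 64 of 346 cases, 18.5% (14.8% to 22.9%), and small nuclear RNA genes, which include the spliceosomal RNAs, in 25 of 129, 19.4% (13.5% to 27.0%). The tRNA share differed from the snoRNA share by -4.12 points (-9.23 to 0.68), by -5.69 points (-9.995 to -1.82) in replicate 1 alone and by -6.95 points (-11.0 to -3.34) in replicate 2 alone. It differed from the snRNA share by -5.001 points (-13.1 to 1.61), by -8.48 points (-15.9 to -2.76) in replicate 1 alone and by -8.28 points (-15.3 to -3.09) in replicate 2 alone. The tRNA share was thus lower than both in each replicate, while the combined intervals include 0. MicroRNA genes were marked in 10 of 261 cases, 3.83% (2.09% to 6.91%). The tRNA share was higher by 10.5 points (6.55 to 14.02) in the combined list and by 4.73 points (1.56 to 7.34) in replicate 1 alone, and in replicate 2 alone the difference of 2.22 points (-0.89 to 4.66) includes 0.

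Fewer peaks than genes carried this result. The 88 marked genes were reached by 74 peaks, of which 14 marked 2 genes each and none marked more. Counted as 507 loci, with tRNA genes whose windows overlap taken as 1 locus, 74 loci were marked. In all, 76 of the 1017 peaks had their summit in a tRNA window, 7.47% (6.01% to 9.25%). These peaks were not the strongest of the list. Their median signal, an authors' value of unstated scale, was 76.2, against 80.2 for the other peaks. On the autosomes it was 74.3 against 80.4, but on X it was 82.7 against 75.4. In the replicates' own lists it was lower on X too, 57.8 against 59.9 in replicate 1 and 44.5 against 53.3 in replicate 2. Of the 254 peaks of highest signal, 105.6 or more, 7 were at tRNA genes, against 26 and 28 in the next blocks of 254 and 15 among the 255 of lowest signal.

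Below the threshold many more tRNA genes held candidate peaks. The ranked list of each replicate gives all candidates without a threshold, 43313 in replicate 1 and 45592 in replicate 2. A summit of the replicate 1 list lay in the window of 459 tRNA genes, 75% (71.4% to 78.3%), against 33.2% of coding genes. In replicate 2 it was 451 tRNA genes, 73.7% (70.1% to 77.0%), against 34.1% of coding genes. These summits stood high in their lists. The median percentile of the best summit was 90.3 at tRNA genes and 62.8 at coding genes in replicate 1, and 88.8 at tRNA genes and 60.5 at coding genes in replicate 2. A summit in the top 10% of the list was present at 37.7% of tRNA genes and 7.09% of coding genes in replicate 1, and at 35.1% of tRNA genes and 6.57% of coding genes in replicate 2. Both replicates had a summit at 382 tRNA genes, and neither had one at 84. A ranked summit alone is a candidate and not a call, so these shares describe the lists.

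The replicates are set side by side gene by gene. Of the 88 marked genes, 85 had a summit in both ranked lists. Signals at the marked genes ran from 20.3 to 89.4 in replicate 1, with a median of 45.3 over those with a summit, and from 17.2 to 69.8 in replicate 2, with a median of 33.7. At unmarked genes with a summit they ran from 8.02 to 46.7 in replicate 1 with a median of 24.2, and from 6.62 to 44.7 in replicate 2 with a median of 19.9. The ranges of marked and unmarked genes overlap in both replicates. Marking came from a list drawn from these same replicates. Higher signals and a summit in both lists at marked genes thus follow in part from that selection. Across the 382 genes the signals had a Spearman rho of 0.37. Among the marked genes alone it was 0.12. These genes were selected through peaks drawn from the same 2 replicates. The lower value therefore cannot show how well their order repeats. Genes that share a peak are not independent points, and the scale of the signal may differ between the 2 lists. Of the marked genes, 42 also passed in the thresholded list of replicate 1, 25 in that of replicate 2, 16 in both, and 37 in neither.

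**Figure D1:**
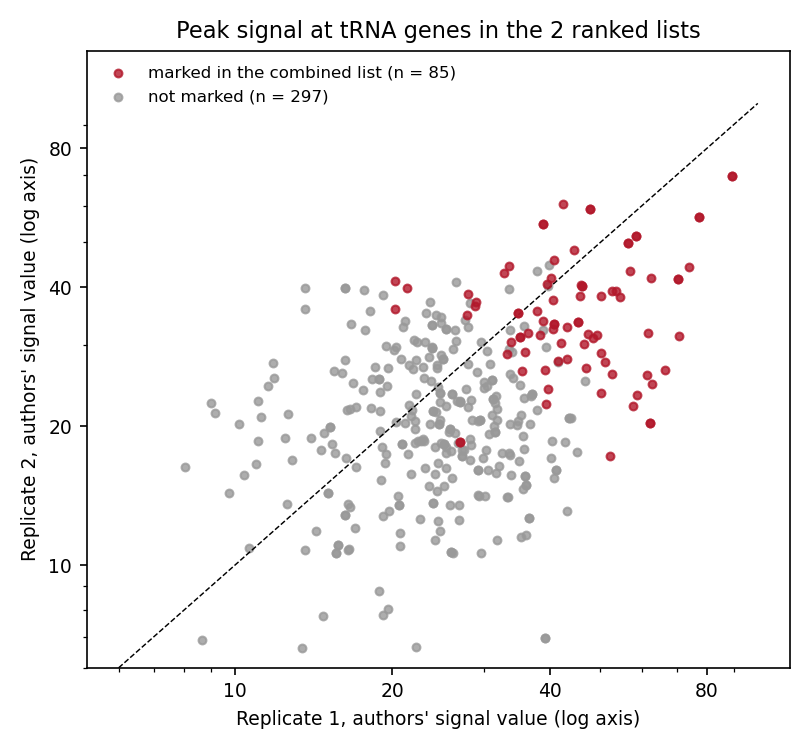
Each point is 1 of the 382 tRNA genes with a summit in both ranked lists, with the authors' signal value of its best summit in replicate 1 on the horizontal and in replicate 2 on the vertical axis, both logarithmic, and the dashed line marks equal values. The 85 marked genes sit toward the upper right but overlap the unmarked genes, and 261 of the 382 points lie below the line. Marking came from a list drawn from both replicates, so the place of the marked genes follows in part from that selection.

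Most summits of the combined list lay close to the 5' end of the tRNA gene. With 1 gene taken per peak, the nearest, the median summit of the 74 peaks was 13 bp downstream of the 5' end, and the quartiles were -14.8 and 46.5 bp. In 41 cases, 55.4%, the summit was inside the tRNA gene, and in 68, 91.9%, it was within 100 bp of the 5' end. Over all summits within 1000 bp of a tRNA gene, 41 of 81, 50.6%, were inside the gene in the combined list, 19 of 38, 50%, in replicate 1 alone and 8 of 24, 33.3%, in replicate 2 alone. Within 100 bp of the 5' end lay 69 of 81 in the combined list, 33 of 38 in replicate 1 and 19 of 24 in replicate 2. At the 558 marked coding genes the median summit was at -198.5 bp, and 126 summits, 22.6%, were within 100 bp of the 5' end. These coding values are per gene and not with 1 gene per peak, so they are not in the unit of the tRNA values. With summits of both kinds placed by the nearest gene, the fullest bin of 50 bp began at -200 bp for coding genes, with 57 summits. For tRNA genes it began at the 5' end, with 31. The 2 replicates set the resolution of these positions: at marked genes with a summit in both, the 2 summits lay a median of 29 bp apart, and 64 of 85 pairs were within 50 bp. This spread is as wide as a good part of a tRNA gene, so the A box, the B box and the 5' end were not resolved from one another.

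**Figure D2:**
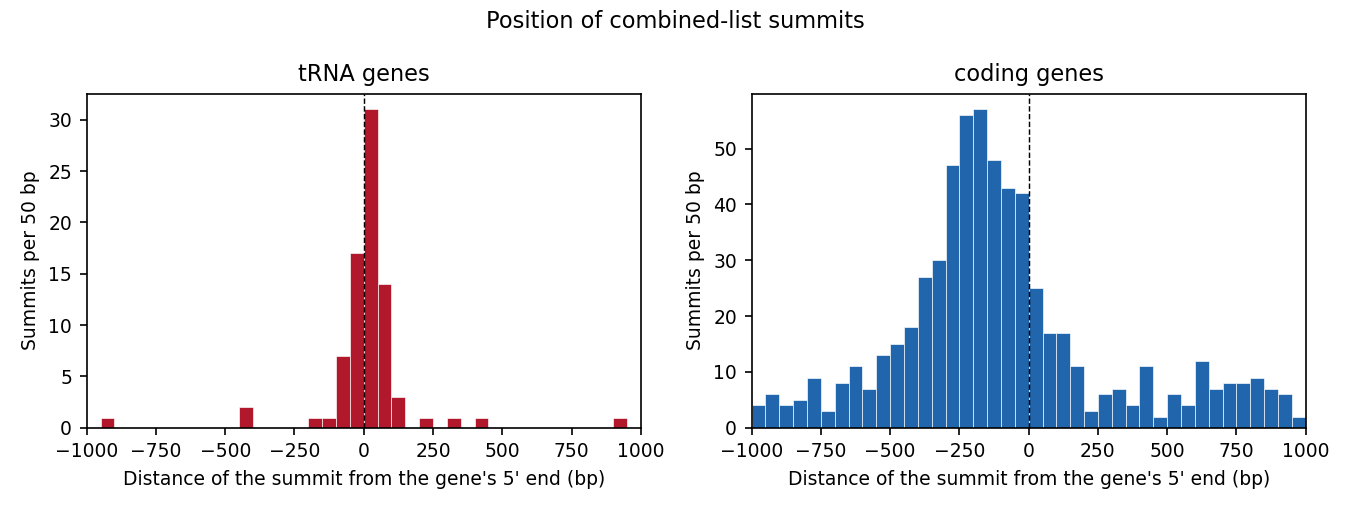
Bars count the summits of the combined list in bins of 50 bp by their distance from the 5' end of the nearest tRNA gene on the left and coding gene on the right, up to 1000 bp on either side on the gene's own strand. At tRNA genes 69 of 81 summits lie within 100 bp of the 5' end, while those of coding genes are spread over the upstream side.

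The strongest tRNA peak lay between T23F1.t1, a Lys gene, and T23F1.t2, a Pro gene, which face each other 66 bp apart (printed above). Its signal was 89.4 in replicate 1 and 69.8 in replicate 2, and 159 in the combined list, where it ranked 76 by signal. Both replicates passed the threshold there. The Ala pair F15G9.t1 and F15G9.t2 in him-4 followed with 77.4 in replicate 1, 56.9 in replicate 2 and 133 combined. The Pro pair C16B8.t2 and C16B8.t3 on X had 70.4 in replicate 1, 41.7 in replicate 2 and 119 combined. These 3 pairs each passed in both replicates.

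Among the lone genes, F57F5.t1 (Ile) had 73.7 in replicate 1 and 44.2 in replicate 2, with 115 combined. F34H10.t1 (Ala) had 70.6 in replicate 1 and 31.4 in replicate 2, with 105 combined. C40H5.t1 (Leu) had 42.3 in replicate 1 and 60.5 in replicate 2, with 105 combined. Each of these 3 lone genes passed in 1 replicate's own list and not in the other's, so their calls rest on the combined list.

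Another 3 pairs completed the upper end of the list. M02F4.t2 (Glu) and M02F4.t1 (Gly) on X had 58.4 in replicate 1 and 51.5 in replicate 2. C16C8.t2 (Thr) and C16C8.t1 (Lys) on II had 56.4 in replicate 1 and 49.9 in replicate 2. W09D6.t2 and W09D6.t1, a divergent Pro pair in introns of rsa-2, a gene for a regulator of spindle assembly, had 47.9 in replicate 1 and 59.0 in replicate 2. All 3 pairs passed in both replicates. The remaining genes of the top 12 peaks were M01E5.t1 (Lys, 102 combined), T09B4.t1 (Ile, 99.9) and C04A11.t1 (Leu, 99.3), of which only M01E5.t1 passed in both replicates.

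At the threshold the calls were close. ZC455.t1 (Ser) passed with the lowest score of a marked gene, 830, with signals of 33.8 in replicate 1 and 30.5 in replicate 2, and T22A3.t1 (Gly) passed at 849 with 20.3 in replicate 1 and 35.8 in replicate 2. Just under it, W06D4.t1 (Asn) had a score of 829 with 40.2 in replicate 1 and 17.1 in replicate 2, and K09A11.t1 (Tyr) had 819 with 35.7 in replicate 1 and 32.9 in replicate 2. The score is the authors' and grows with the reproducibility of a peak. The signals of the 4 genes overlap on either side of the threshold.

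The X chromosome holds 276 of the tRNA genes, 45.1%. There, 35 of 276 were marked, 12.7% (9.26% to 17.1%), against 53 of 336 on the autosomes, 15.8% (12.3% to 20.1%). The difference of -3.09 points (-8.57 to 2.57) spans 0. In replicate 1 alone the shares were 7.61% on X and 6.55% on the autosomes, and in replicate 2 alone 4.71% on X and 5.06% on the autosomes, so the replicates differ in direction and neither difference exceeds its counting error.

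Coding genes were marked far less often on X. Only 21 of 2731 coding genes on X were marked, 0.769%, against 537 of 17242 on the autosomes, 3.11%. SnoRNA genes had 1 of 33 marked on X, 3.03%, against 63 of 313 on the autosomes, 20.1%. MicroRNA genes had 3 of 74 marked on X, 4.05%, against 7 of 187 on the autosomes, 3.74%. In replicate 1 alone microRNA genes had 0 of 74 on X against 6 of 187, and in replicate 2 alone 2 of 74 against 5 of 187. The X share over the autosomal share was 0.804 for tRNA genes (0.541 to 1.19) and 0.247 for coding genes (0.160 to 0.381). The ratio of these ratios was 3.26 (1.81 to 5.86), 10.4 (3.85 to 27.9) in replicate 1 alone and 13.0 (3.42 to 49.6) in replicate 2 alone. The replicate values rest on 6 and 3 marked coding genes on X. When only tRNA genes with a sequence of their own were counted, the ratio was 1.75 (0.556 to 5.49), an interval that includes 1. In the ranked lists, where candidates are counted without a threshold, it was 1.14 (1.02 to 1.27) in replicate 1 and 1.03 (0.923 to 1.15) in replicate 2. The interval for replicate 2 includes 1, so the contrast was present in the thresholded lists and not detectable in every ranked list.

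Seen from the peaks, tRNA genes took up a large part of the X list. On X, 29 of 92 combined peaks had their summit in a tRNA window, 31.5% (22.9% to 41.6%), against 47 of 925 on the autosomes, 5.08% (3.84% to 6.69%). In replicate 1 alone it was 15 of 49 peaks on X, 30.6%, and 19 of 521 on the autosomes, 3.65%. In replicate 2 alone it was 9 of 35 on X, 25.7%, and 13 of 379 on the autosomes, 3.43%. These shares also depend on how many tRNA genes a chromosome holds. Of the 29 X peaks, 1 also lay in the window of a coding gene, against 14 of the 47 on the autosomes. Among tRNA genes whose window met no coding window, the X minus autosomal difference in marked share was 2.09 points (-3.90 to 8.14). Over all tRNA genes it was -3.09 points, so the sign changed, and both intervals hold values of either sign.

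**Figure D3:**
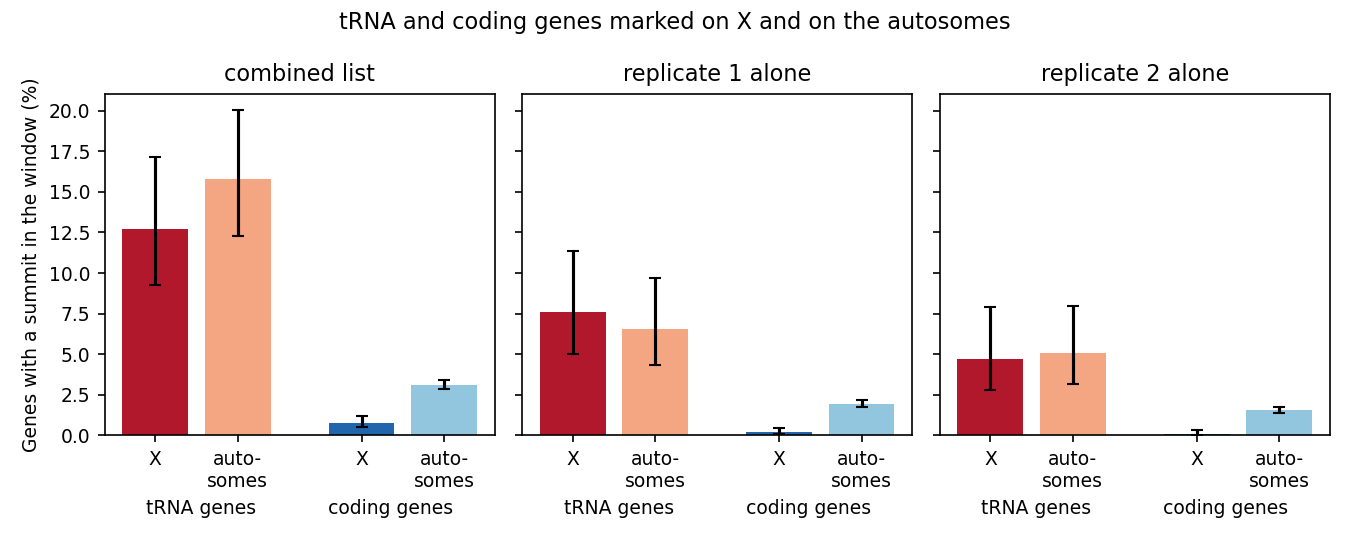
Bars give the percentage of genes with a summit in the window, for tRNA genes and coding genes on X and on the autosomes, in the combined list and in each replicate's thresholded list, with 95% Wilson intervals as error bars. The tRNA shares on X and on the autosomes overlap in all 3 panels, while the coding share on X lies below that on the autosomes, 0.769% against 3.11% in the combined list.

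Single chromosomes covered a wide range. The marked share was 28.1% on II, 16 of 57 genes (18.1% to 40.8%), and 5.63% on IV, 4 of 71 (2.21% to 13.6%). The other chromosomes lay between, with 18.8% on III, 15.2% on I, 14.1% on V and 12.7% on X. In replicate 1 alone II had 6 marked genes and IV had 0, which allows a share of up to 4.23% on IV. In replicate 2 alone II had 3 and IV had 2. The order of the chromosomes differed between lists. In replicate 2 alone III was highest with 6 of 64, 9.38%, and V lowest with 2 of 78, 2.56%, against 5.26% on II and 2.82% on IV. In the conservative list III was highest at 21.9%, against 21.1% on II, and IV was at 9.86%. No order is read from these counts.

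Clustered genes, those with another tRNA gene within 1000 bp, were marked in 38 of 236 cases, 16.1% (11.96% to 21.3%), against 50 of 376 lone genes, 13.3% (10.2% to 17.1%). The difference of 2.80 points (-2.82 to 8.86) spans 0. In each replicate alone the interval of the difference excluded 0, with genes that share a peak counted singly. Replicate 1 had 9.75% of clustered and 5.32% of lone genes, a difference of 4.43 points (0.23 to 9.25), and replicate 2 had 8.05% of clustered and 2.93% of lone genes, a difference of 5.13 points (1.51 to 9.50). Neighbours can be marked by 1 peak, which raises the count of clustered genes. In replicate 1 alone 34 peaks lay at the 43 marked genes, and in replicate 2 alone 22 peaks lay at the 30 marked genes. A count by loci was not made for either replicate, so the part of shared peaks in these 2 differences was not tested. With each group of overlapping windows counted as 1 locus the difference in the combined list was 5.02 points (-1.82 to 13.1). A locus counts as marked if any of its genes is, and a locus of several genes spans a wider stretch than a lone gene. The count by loci therefore also favours clustered genes.

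The pairs show how close such neighbours were. All 14 peaks that marked 2 genes lay at pairs of neighbouring genes within 200 bp of each other, of which there were 57, and none at the 79 adjacent pairs farther apart within 1000 bp. The 14 gaps ran from 48 to 189 bp with a median of 106 bp. The summit was in the spacer in 10 of the 14. Of 51 divergent pairs 7 shared a peak, of 28 facing pairs 2, and of 57 pairs on the same strand 5. A peak can mark 2 genes only where their windows overlap, which depends on gap and strand. The counts by gap and by arrangement are therefore partly set by the window. In 9 of the 14 pairs both genes carry the same amino acid. That share was not counted over all adjacent pairs, so nothing particular to shared peaks is read from it. The pair with the widest spacer was F46G11.t2 and F46G11.t1 (Pro) on X, with signals of 62.3 in replicate 1 and 20.3 in replicate 2.

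Nested genes lie wholly inside a coding gene and intergenic genes overlap none. Nested genes were marked in 32 of 290 cases, 11.0% (7.93% to 15.2%), against 56 of 319 intergenic genes, 17.6% (13.8% to 22.1%). The difference was -6.52 points (-12.03 to -0.92). In replicate 1 alone it was -6.24 points (-10.4 to -2.20), with 3.79% of nested and 10.03% of intergenic genes. In replicate 2 alone it was -2.82 points (-6.40 to 0.71), with 3.45% of nested and 6.27% of intergenic genes, an interval that includes 0. The 3 genes that overlap a coding gene in part were not marked.

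The interval also reached 0 in the conservative combined list, where the difference was -3.89 points (-9.43 to 1.75), and candidates in the ranked lists ran the other way. A summit was present at 76.9% of nested and 74.0% of intergenic genes in replicate 1 and at 75.9% of nested and 72.1% of intergenic genes in replicate 2, and the intervals of both differences include 0. Of the nested genes, 283 lay in introns, with 31 marked, and 7 met an exon, with 1 marked. Those on the strand of the host were marked in 17 of 167 cases, 10.2%, and those on the opposite strand in 15 of 123, 12.2%. Besides the pairs in him-4 and rsa-2, the nested genes of highest signal were F38G1.t2 (Asp) in egl-17, a fibroblast growth factor gene, with 52.7 in replicate 1 and 39.3 in replicate 2, and C06G1.t1 (His) in C06G1.1, with 40.2 in replicate 1 and 41.8 in replicate 2.

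**Figure D4:**
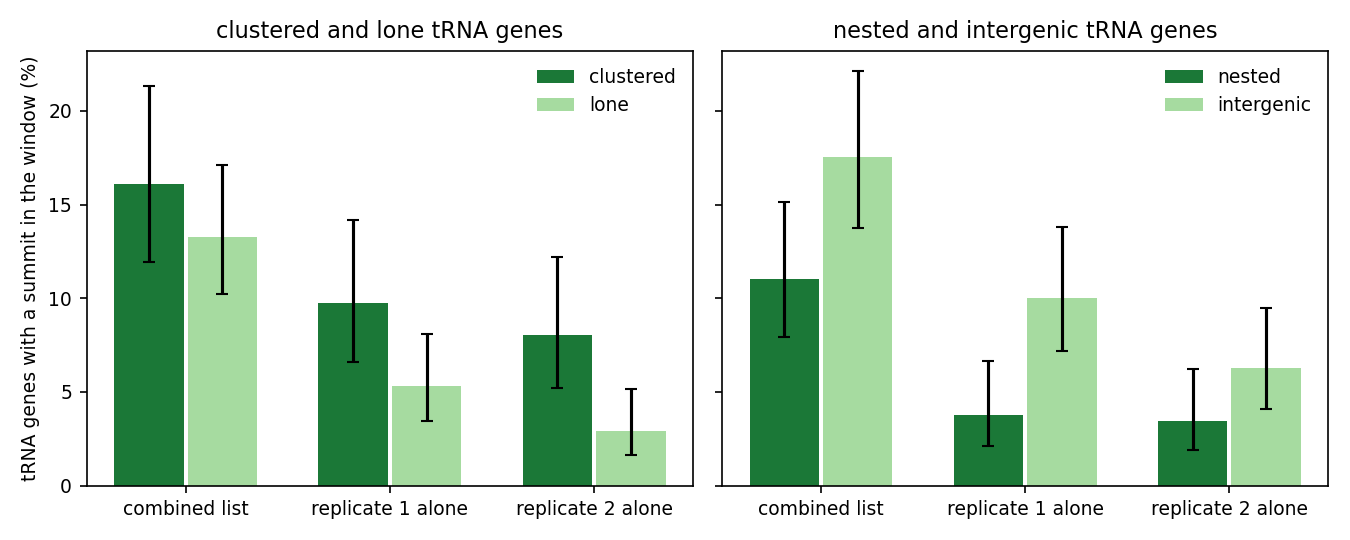
Bars give the percentage of tRNA genes with a summit in the window, for clustered and lone genes on the left and nested and intergenic genes on the right, in the combined list and in each replicate's thresholded list, with 95% Wilson intervals as error bars. Clustered genes lie above lone genes and nested below intergenic genes in all 3 lists. The intervals overlap in the combined list, for clustered and lone genes in replicate 1, and for nested and intergenic genes in replicate 2.

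Location and clustering came together. In the combined list clustered intergenic genes had the highest share, 30 of 148 or 20.3% (14.6% to 27.5%), and clustered nested genes had 8 of 88, 9.09% (4.68% to 16.9%). Lone nested genes had 24 of 202, 11.9%, and lone intergenic genes 26 of 171, 15.2%. In replicate 1 alone the shares were 12.8% for clustered intergenic, 4.55% for clustered nested, 3.47% for lone nested and 7.60% for lone intergenic genes. In replicate 2 alone they were 10.1% for clustered intergenic, 4.55% for clustered nested, 2.97% for lone nested and 2.92% for lone intergenic genes. Clustered intergenic genes were highest in all 3 lists, and the order of the others changed. A coding gene's own window can bring a peak to a tRNA gene beside it. Where the tRNA window met a coding window, 28 of 134 genes were marked, 20.9%, against 60 of 478 where it met none, 12.6%, a difference of 8.34 points (1.49 to 16.4). In replicate 1 alone that difference was 0.56 points (-3.71 to 6.61) and in replicate 2 alone 0.41 points (-3.12 to 5.82). The 12.6% of tRNA genes with no coding window near them had an interval of 9.88% to 15.8%, above the coding background of 2.79%.

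By amino acid, Pro genes had the highest share, 12 of 42 or 28.6% (17.2% to 43.6%), with 7 marked in replicate 1 alone and 7 in replicate 2 alone. Ala genes followed with 7 of 34, 20.6% (10.3% to 36.8%), and Lys genes with 9 of 46, 19.6% (10.7% to 33.2%). The genes of highest signal in these classes were T23F1.t2 (Pro), F15G9.t1 and F15G9.t2 (Ala) and T23F1.t1 (Lys). The interval of Pro lay above the 14.4% of all tRNA genes, and those of Ala and Lys included it. Pro is named here because it ranked highest. Most of its marked genes share a peak with another Pro gene, in the pairs of C16B8, W09D6, F46G11, T22F3 and ZK970. Its interval counts such genes as independent.

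The combined list marked 0 of 13 Cys genes and 0 of 12 Trp genes, counts that still allow up to 23.1% of Cys genes and 25% of Trp genes. These genes were not empty. A summit in both ranked lists was present at 12 of the 13 Cys genes and at 7 of the 12 Trp genes. It was present at 382 of all 612 tRNA genes and at 33 of 42 Pro genes. Nothing particular to Cys or Trp genes is read from these counts. The highest signals among Cys genes were 36.8 in replicate 1 and 32.3 in replicate 2, below the medians of 45.3 and 33.7 at marked genes. Among Trp genes the highest were 41.6 in replicate 1, below that median, and 39.6 in replicate 2, above it. The single gene for selenocysteine tRNA, K11H12.t1, had 23.9 in replicate 1 and 29.7 in replicate 2 and did not pass. The 5 genes with no amino acid in the annotation had no call and no gene with a summit in both replicates.

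**Figure D5:**
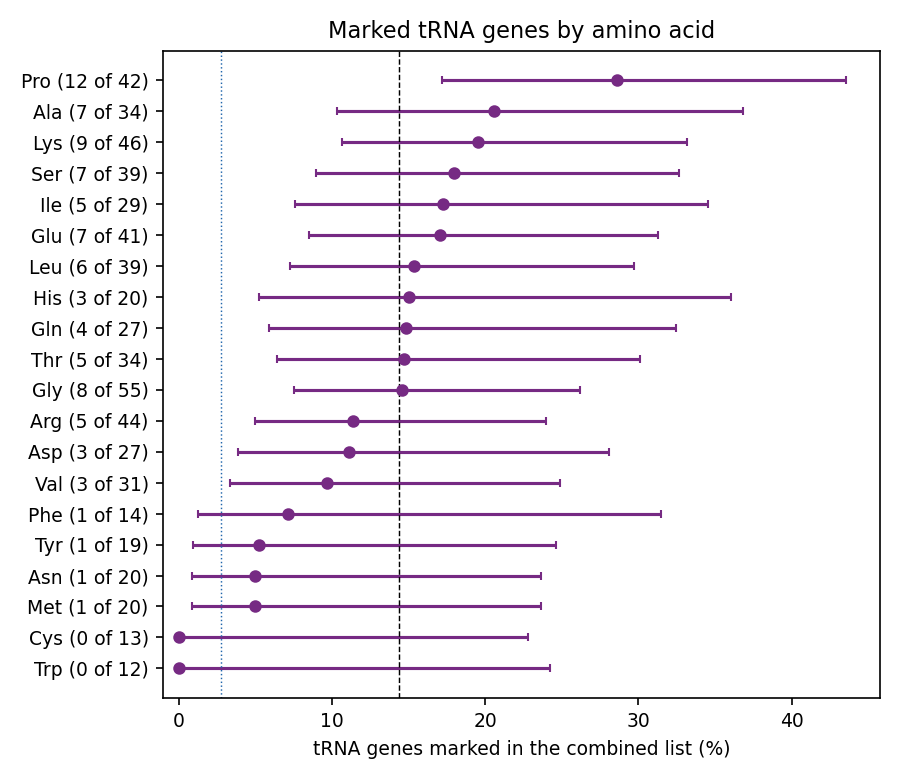
Points give the percentage of tRNA genes marked in the combined list for each amino acid with at least 10 genes, with 95% Wilson intervals, the dashed line at the 14.4% of all tRNA genes and the dotted line at the 2.79% of coding genes. Pro stands highest at 28.6% and most intervals cross the dashed line.

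Genes of identical sequence were marked in part. The 612 genes hold 200 distinct sequences, of which 57 occur in 2 or more genes. In 33 of these 57 families some member was marked, and in none were all marked. These counts stand beside the 14.4% marked over all tRNA genes, and nothing particular to a family is read from them. The largest family, 29 Gly genes of 1 sequence, had 5 marked, and the 24 Pro genes identical to T23F1.t2 had 8. The 12 identical Cys genes had 0, although 11 of them had a summit in both ranked lists, and the 10 identical Trp genes had 0 with 6. The signals of the marked Pro copies ran from 41.4 to 159 in the combined list. The same letters thus occurred in a gene of the strongest tRNA peak and in unmarked genes.

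Reads that fall inside identical genes can match several places, and the authors' way of placing them is unknown. Genes with a sequence of their own were marked in 18 of 143 cases, 12.6% (8.11% to 19.02%), and genes with an identical copy in 70 of 469, 14.9% (11.99% to 18.4%), a difference of -2.34 points (-8.02 to 4.73). In the ranked lists the shares with a summit were 63.6% for unique genes and 78.5% for copied genes in replicate 1, and 63.6% for unique genes and 76.8% for copied genes in replicate 2, and both differences exceed their counting error. The part of read placement in these differences was not tested.

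The letters of the internal promoter were about as common in marked as in unmarked genes. GTTCGANNC, the core of the B box that TFIIIC binds, was searched on the gene's own strand and occurred in 72.1% of the 612 genes, at a median position of 53 from the 5' end, against 0.235% of coding genes (47 of 19973) over the first 72 bases of the gene. It occurred in 69.3% of marked and 72.5% of unmarked genes. Of the genes with these letters 61 of 441 were marked, 13.8%, and of those without them 27 of 171, 15.8%, a difference of -1.96 points (-8.81 to 3.93). With the looser letters GTTCNANNC, which include the Pro and Ala genes printed above, the shares were 96.6% of marked and 95.8% of unmarked genes, against 1.48% of coding genes. All but 7 of the 612 genes had TTTT within 40 bp past their 3' end, among them 87 of the 88 marked genes. The median GC content of the gene was 58.3% for both marked and unmarked genes.

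The genes for the tRNA machinery were counted in lists of 15 genes for RNA polymerase III and its factors, 33 aminoacyl-tRNA synthetases and 24 genes for processing, modification and export, of which 20 were found by name. Of the polymerase III list, 2 of 15 were marked, 13.3% (3.74% to 37.9%), against the coding background of 2.79%, a share that rests on 2 genes. They were rpac-19, a subunit shared by polymerases I and III, with 35.2 in replicate 1 and 58.7 in replicate 2, and rpb-12, a subunit shared by all 3 polymerases, with 55.9 in replicate 1 and 26.4 in replicate 2. Of the synthetases, which load amino acids onto tRNAs, 2 of 33 were marked, 6.06% (1.68% to 19.6%), ears-2 with 63.4 in replicate 1 and 37.2 in replicate 2 and yars-2 with 32.3 in replicate 1 and 45.3 in replicate 2. The processing list also holds gtbp-1, which was not marked and whose part in tRNA processing is not established here. Of the processing list 1 of 20 was marked, 5.00% (0.89% to 23.6%). The marked gene was mtcu-2, a mitochondrial tRNA modification gene, with 163 in replicate 1 and 111 in replicate 2, above every tRNA gene. Its summit was 468 bp upstream of the 5' end. The intervals of the synthetase and processing lists include 2.79%. None of the genes for TFIIIC subunits or BRF1 in the list (tftc-1, tftc-3, tftc-5 and brf-1) was marked.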

How the data were processed

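Peak lists of 2 replicates of 1 group were used, 7 lists in all. Per the labels the assembly was ce11. Per the text files beside the samples, an input and the aligned reads of 1 or both replicates went into each list, and which aligner and which peak caller the authors used is not given here. The authors' signal for a peak is the value deposited from that caller, and it was used within a list only. The authors' deposited score is scaled from the irreproducible discovery rate, and the thresholded lists begin at 830, which corresponds to an IDR of 0.01. The deposited offset of the summit from the start of the peak gave its position. Read counts are not part of the lists, so depth is unknown. The combined ranked lists have 16 columns of per-replicate values with no sample named, which were left out.

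Genes came from Ensembl release 115, amino acids and sequence from the RefSeq copy of WBcel235, in which all 612 genes were matched by gene ID. Of these, 607 had an amino acid. A gene with several summits took the one of highest signal. Clustered genes had another tRNA gene within 1000 bp, end to end. Shares have 95% Wilson intervals, differences of shares Newcombe intervals and ratios of shares intervals on the log scale. For a count of 0 the limit is 3 counts of the total. Python 3.11.15, pandas 2.3.3, numpy 2.4.6 and scipy 1.17.1 were used, and the matching of summits and the intervals were tested on simulated data.

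The members and the gene lists were chosen with earlier results of these data known. Named genes were those of the 12 peaks of highest signal, the 3 highest on X and among lone, clustered and nested genes, the highest of the 3 amino acids with the highest share, 2 genes on either side of the threshold, and every marked gene of the pathway lists. F38G1.t2, C06G1.t1, F46G11.t1, F46G11.t2, K11H12.t1 and T28C12.t1 were added after their values were seen. So were the ratio of X to autosomal shares, the looser B box, the count of pairs and the families of identical genes. Alternatives were other lists, windows, cluster distances and subsets of genes.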

Additional observations from a re-analysis of the deposited data

Results flagged for a closer look

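The X chromosome and the autosomes differed for coding genes and not detectably for tRNA genes. MicroRNA genes were also not lower on X in the combined list, 4.05% against 3.74%, a share that rests on 3 X genes. SnoRNA genes were lower on X, 3.03% against 20.1%, with 1 marked X gene. The X share over the autosomal share was 0.804 for tRNA genes and 0.247 for coding genes, and the ratio of these ratios was 3.26, with an interval (1.81 to 5.86) that excludes 1. The interval covers counting error over genes only, and genes that share a peak are counted singly. In the ranked lists the ratio was 1.14 (1.02 to 1.27) in replicate 1 and 1.03 (0.923 to 1.15) in replicate 2. Among tRNA genes with a sequence of their own it was 1.75 (0.556 to 5.49), an interval that includes 1. With loci in place of tRNA genes it was 3.69, and without tRNA windows that meet a coding window it was 4.79.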

How the results depend on the processing

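The share of marked tRNA genes, 14.4%, stayed within its interval under 7 of 11 alternatives. It was 7.03% with the 508 combined peaks of highest signal and 30.9% at an IDR of 0.05, and between 4.90% and 7.03% when either replicate was left out. The ratio of X to autosomal shares, tRNA genes over coding genes, stayed above 1 in all 11 alternatives. It was 12.2 with those 508 peaks and between 10.4 and 13.0 when either replicate was left out. Among tRNA genes with a sequence of their own it was 1.75, with an interval that includes 1, and there the X minus autosomal difference was -9.26 points. That difference had the same sign in 8 of 11 alternatives and an interval that included 0 in each of the 11. The clustered minus lone difference was positive in 13 of 13, from 0.18 points with clusters within 5000 bp to 6.15 points. Its interval excluded 0 in 4, in all of which genes that share a peak were counted singly. The nested minus intergenic difference was negative in 13 of 13, from -7.39 to -2.82 points, and its interval excluded 0 in 5. A summit within the gene body alone was present at 31.5% of genes in the ranked list of replicate 1 and 30.6% in that of replicate 2. The median percentile of signal at the named genes was 99.6 in the combined ranked list and between 99.2 and 99.3 with either replicate left out, values that the choice of these genes by signal fixes near the top. The causes of these shifts were not tested. The conservative list also marked 88 tRNA genes, of which 76 were shared with the combined list. No paired analysis was possible because the study has 1 group. The lists hold no read counts, so depth at single genes is unknown, and a gene without a peak is not shown to lack the protein.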
